A study of Mus musculus with 12 samples.

Results

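The genes described here are Ly6c2, Chil3, F10, Clec4e, Plac8, F13a1 and Thbs1, a set of 7 genes known from inflammatory monocytes that enter injured tissue. They were chosen by symbol, and both they and the gene lists below were chosen with earlier results of these data known. Counts of members or list genes called, set beside all genes, therefore describe these sets only. All 7 were found among the 53801 genes of the deposited tables, and all 7 passed the filter on low counts. RNA was measured by bulk sequencing of sorted cardiac macrophages. All 4 groups came from mice with a myocardial infarct made by ligating the left anterior descending coronary artery. The WT and the Bhlhe41dTomato-Cre+/- mice, here Bhlhe41Cre, were of the C57BL/6N strain, and cells of either genotype were separated by surface CCR2 into a low and a high gate, CCR2low and CCR2hi. There were 3 libraries per group. The Bhlhe41Cre mice carry a dTomato-Cre insertion at Bhlhe41, which encodes a basic helix-loop-helix repressor, and no further allele or agent is named for any group. The labels state neither the time after ligation, the age of the mice, nor whether animals were pooled, so p values measure the spread between libraries, which may be in part technical.

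Monocytes leave the bone marrow through the chemokine receptor CCR2, circulate with high surface Ly6C, and enter the infarcted heart, where they turn into macrophages and lose Ly6C. Newly arrived cells are known for genes of cell entry and early inflammation (Ly6c2, Plac8), for the secreted lectin Chil3 and the lectin receptor Clec4e, and for factors that act on the fibrin clot and the provisional matrix (F10, F13a1, Thbs1). F10 encodes the zymogen of the coagulation protease factor X, and F13a1 the transglutaminase subunit of factor XIII, which crosslinks fibrin. Several of these genes are also made by other cells: Chil3 and Clec4e by neutrophils, Thbs1 and F13a1 by the platelet lineage, Thbs1 by fibroblasts and endothelium.

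Total counts per library ran from 17702018 to 20826688. The labelled cell type did not hold equally in all groups. A list of 17 macrophage identity genes, among them Csf1r, Adgre1 and C1qa, took 3.03 to 3.09% of counts in WT CCR2low and 2.49 to 2.85% in Bhlhe41Cre CCR2low, but 0.217 to 0.435% in WT CCR2hi and 0.645 to 0.878% in Bhlhe41Cre CCR2hi. A list of 20 genes shared by all leukocytes took 0.965 to 1.04%, 0.99 to 1.05%, 0.118 to 0.211% and 0.368 to 0.494% in the same order. A list of 16 fibroblast genes took 7.8 to 8.76% in WT CCR2hi and 4.29 to 5.43% in Bhlhe41Cre CCR2hi, against at most 0.915% in either CCR2low group. Neutrophil markers, 14 genes, were at 0.0193 to 0.0275% (CCR2low) and 0.00705 to 0.0191% (CCR2hi) in WT, and at 0.0334 to 0.0369% (CCR2low) and 0.113 to 0.17% (CCR2hi) in Bhlhe41Cre, and platelet markers, 12 genes, stayed at or under 0.0124% in every group. None of the genes on these 5 lists was at 0 in any group. Bhlhe41 itself was at 35.9 ± 4.70 CPM, counts per 1000000 counts of the library (SD, n = 3), among WT CCR2low libraries and 37.4 ± 9.37 among WT CCR2hi. For Bhlhe41Cre it was at 21.1 ± 6.83 (CCR2low) and 7.98 ± 1.35 (CCR2hi). The labels give male mice, yet Xist, made from the inactive X of females, had 1403 to 3699 counts in the libraries labelled Bhlhe41Cre and at most 3 in WT. The sum of 4 Y-linked genes in replicates 1 to 3 of Bhlhe41Cre was 1162, 1446 and 105 counts (CCR2low) or 709, 1413 and 182 (CCR2hi), and 668 to 1741 in WT. Genotype therefore cannot be told apart from the sex of the mice here. Results were also computed without both Bhlhe41Cre libraries numbered 3, whose Y-linked counts were lowest. The Bhlhe41Cre libraries kept still held 1589 to 3699 Xist counts, so leaving these out does not separate genotype from sex.

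**Figure D1:**
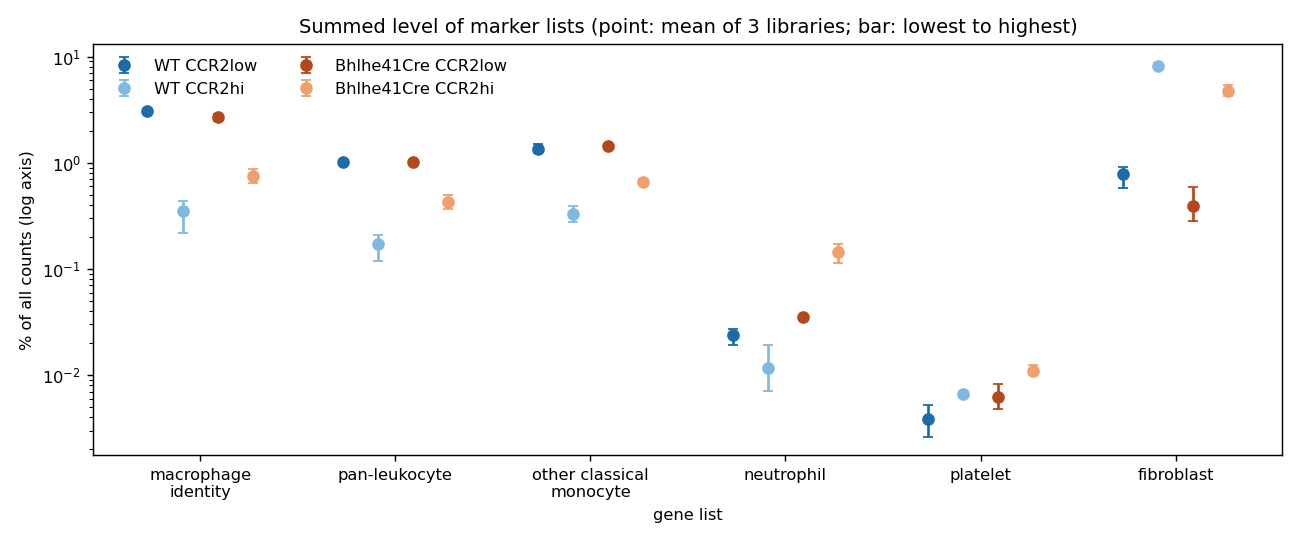
Summed level of 6 gene lists as a percentage of all counts (log axis) in the 4 groups; points are means of 3 libraries and bars run from the lowest to the highest library. Macrophage and leukocyte lists are lower in the CCR2hi groups, the fibroblast list is higher there, and the neutrophil list is highest in Bhlhe41Cre CCR2hi, at 0.113 to 0.17%.

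Ly6c2 and Chil3 each have a near copy in the genome, so their sequences are shown first: a read that fits both copies must be divided between them by the counting program. The coding sequences of Ly6c2 and of Ly6c1, which is expressed in endothelium, are both 393 bases long and identical at 384 positions (97.7%). Of the 773 windows of 50 bases in the Ly6c2 transcript, 252 (32.6%) occur unchanged in a Ly6c1 transcript. The first 180 coding bases follow, from GENCODE transcripts on GRCm38, minus strand, with the 6 differing bases in capitals. The Ly6c2 coding region spans chr15:75108546-75111667 and that of Ly6c1 chr15:75045405-75048511.
Ly6c2: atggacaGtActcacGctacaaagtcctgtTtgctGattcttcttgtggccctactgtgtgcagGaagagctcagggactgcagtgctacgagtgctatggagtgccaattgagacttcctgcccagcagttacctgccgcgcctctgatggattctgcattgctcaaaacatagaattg
Ly6c1: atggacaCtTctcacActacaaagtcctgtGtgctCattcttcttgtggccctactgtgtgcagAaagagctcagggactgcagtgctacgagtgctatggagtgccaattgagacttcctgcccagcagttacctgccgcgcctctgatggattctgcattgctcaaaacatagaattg
All 6 differences shown fall in the first part of the stretch, and the rest is the same in both genes.

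Chil3, a secreted chitinase-like lectin also called Ym1, has the neighbour Chil4 (Ym2), whose coding sequence is 94.4% identical over 1206 aligned positions. Here 275 of 1490 windows of 50 bases in the Chil3 transcript (18.5%) occur in Chil4. Their promoters are alike as well: in the 250 bases before each annotated start, a local alignment of 222 positions was identical at 201 (90.5%). They are shown because the counts of the copies lie far apart. Capitals mark bases that differ or lie outside the alignment (RefSeq, GRCm38.p6, minus strand, chr3:106167565-106167814 for Chil3 and chr3:106219480-106219729 for Chil4).
Chil3: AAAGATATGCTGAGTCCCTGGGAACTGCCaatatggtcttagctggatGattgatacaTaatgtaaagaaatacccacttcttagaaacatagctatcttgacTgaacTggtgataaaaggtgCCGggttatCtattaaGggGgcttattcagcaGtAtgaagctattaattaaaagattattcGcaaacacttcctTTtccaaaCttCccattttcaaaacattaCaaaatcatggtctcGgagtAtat
Chil4: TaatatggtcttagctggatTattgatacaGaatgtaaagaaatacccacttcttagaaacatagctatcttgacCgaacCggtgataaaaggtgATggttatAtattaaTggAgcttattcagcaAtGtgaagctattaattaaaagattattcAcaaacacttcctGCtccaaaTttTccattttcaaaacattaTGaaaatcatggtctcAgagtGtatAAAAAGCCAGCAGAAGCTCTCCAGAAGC
Chil4 had 1 count in Bhlhe41Cre CCR2low replicate 2 and 0 in every other library, while Chil3 had from 421 to 10526 counts. The counting thus assigned almost nothing to the copy.

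PU.1, a transcription factor that myeloid cells need, binds purine-rich DNA with a GGAA core. The letters GAGGAA, on either strand, occur in the 250 bases before at least 1 annotated start of 4 of the 6 members that the RefSeq table holds (Ly6c2, Clec4e, Plac8 and F13a1), and not in the window of Chil3 or F10. Over all genes of that table the share is 25.9%, and over single starts 23.3%. The windows of Clec4e (chr6:123289872-123290121), Ly6c2 (chr15:75111972-75112221) and F13a1 (chr13:37050245-37050494), all on the minus strand, are shown with these letters or their reverse complement in capitals.
Clec4e: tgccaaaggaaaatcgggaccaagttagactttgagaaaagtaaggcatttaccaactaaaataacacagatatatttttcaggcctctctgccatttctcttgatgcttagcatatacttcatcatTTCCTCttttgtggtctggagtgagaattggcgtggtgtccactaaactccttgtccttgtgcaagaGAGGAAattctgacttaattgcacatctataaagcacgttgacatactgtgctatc
Ly6c2: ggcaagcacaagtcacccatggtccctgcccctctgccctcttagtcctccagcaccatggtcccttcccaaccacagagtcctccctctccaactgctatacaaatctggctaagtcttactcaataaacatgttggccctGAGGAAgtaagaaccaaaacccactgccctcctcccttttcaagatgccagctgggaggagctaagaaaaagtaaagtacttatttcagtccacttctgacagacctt
F13a1: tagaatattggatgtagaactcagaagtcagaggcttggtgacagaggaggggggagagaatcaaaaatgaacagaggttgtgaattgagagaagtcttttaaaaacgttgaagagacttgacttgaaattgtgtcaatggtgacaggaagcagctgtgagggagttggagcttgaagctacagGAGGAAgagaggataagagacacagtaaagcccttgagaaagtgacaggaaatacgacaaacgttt
Clec4e holds them in both orientations, while Ly6c2 and F13a1 hold them once in the windows shown. A match describes the letters only, and no binding was measured here.

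Per unit of transcript length, Thbs1 was the most abundant member in every group, with a mean of 416 (CCR2low) and 830 (CCR2hi) TPM (transcripts per 1000000) in WT, and of 902 and 781 TPM in the same gates of Bhlhe41Cre. In WT CCR2low it was followed by F13a1 (193 TPM), Plac8 (169), Chil3 (148), Clec4e (89.6), F10 (37.4) and Ly6c2 (37.0). There neighbours from F13a1 to Clec4e overlapped between libraries, as did F10 and Ly6c2. In WT CCR2hi the order after Thbs1 was Plac8 (157 ± 64.9 TPM), Clec4e (45.2), Chil3 (38.2), Ly6c2 (33.6), F13a1 (19.7) and F10 (6.18 ± 0.789), where neighbours from Clec4e to F13a1 overlapped and F10 lay below them. Bhlhe41Cre CCR2low had Chil3 (504), Clec4e (432), F13a1 (240), Plac8 (143), F10 (88.8) and Ly6c2 (60.04), and there Clec4e overlapped with Chil3 and with F13a1. The order was different in Bhlhe41Cre CCR2hi, where Plac8 (460 TPM), Clec4e (460) and Chil3 (420) came next, overlapping one another, before Ly6c2 (146), F10 (115) and F13a1 (55.5). Ly6c2 and F10 overlapped. Values that follow are CPM by TMM-scaled library size, which compare groups within a gene. Changes are given as log2 ratios ± SE from edgeR's quasi-likelihood test with Benjamini-Hochberg adjusted p over 14964 genes.

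**Figure D2:**
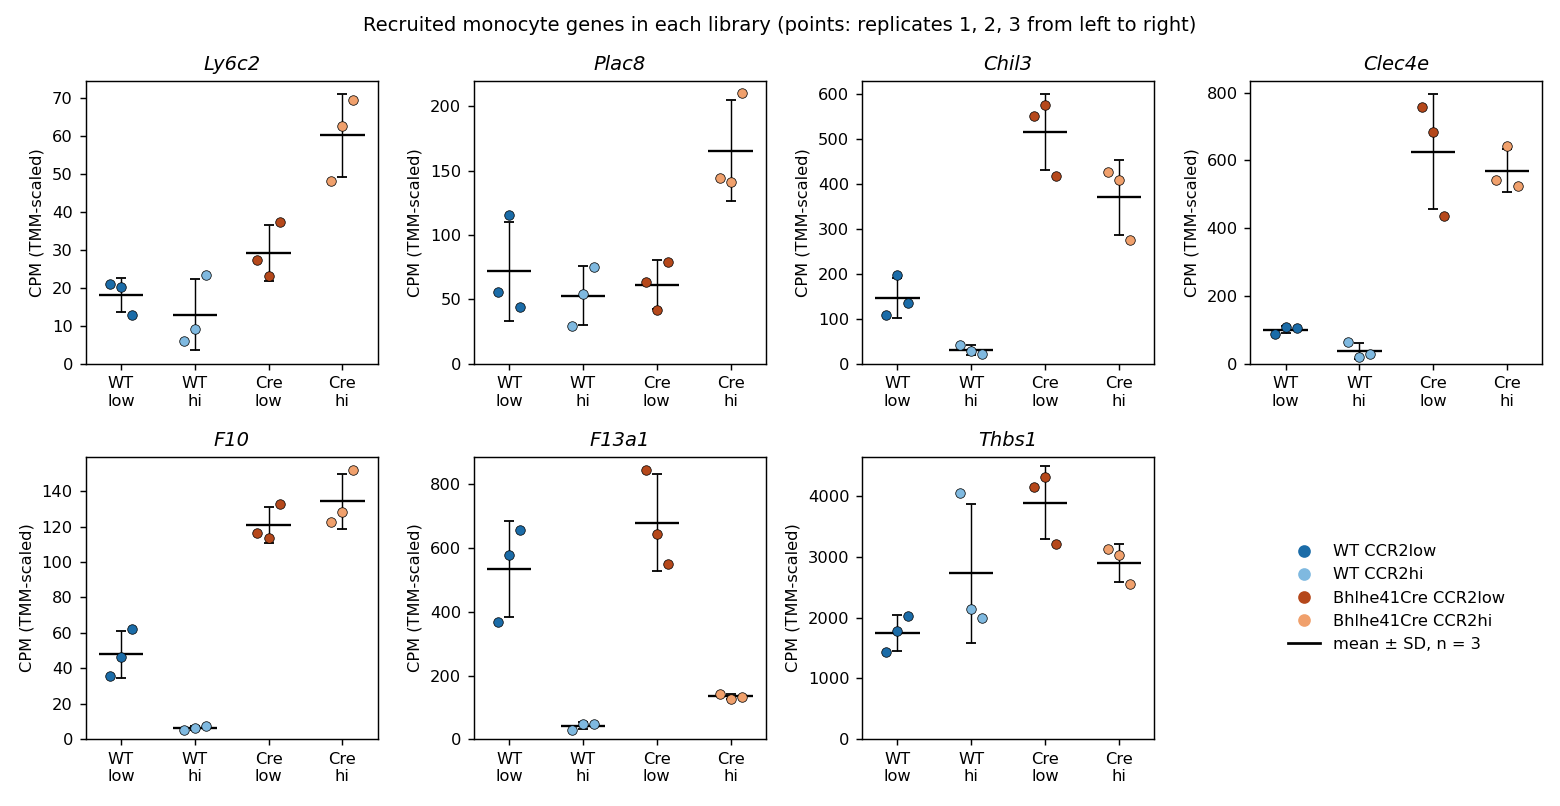
CPM of each member in each of the 12 libraries (linear axes from 0), with the mean ± SD of 3 libraries as lines; points of a group are replicates 1, 2 and 3 from left to right. F10, Chil3 and Clec4e are higher in every Bhlhe41Cre library than in any WT library, while Ly6c2 and Plac8 are highest in Bhlhe41Cre CCR2hi.

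Ly6c2 (chr15:75108158-75111970, minus strand) encodes the surface protein by which inflammatory monocytes are recognised. Replicates 1 to 3 of WT held 21.0, 20.4 and 12.9 CPM (CCR2low) and 5.92, 9.19 and 23.5 (CCR2hi). Those of Bhlhe41Cre held 27.4, 23.0 and 37.45 (CCR2low) and 48.2, 62.8 and 69.7 (CCR2hi). The WT gates overlapped, because WT CCR2hi replicate 3 stood above all WT CCR2low libraries, whereas Bhlhe41Cre CCR2hi lay above all other libraries. Ly6c2 was 4.68-fold higher in Bhlhe41Cre than in WT within CCR2hi (2.23 ± 0.397, adjusted p = 0.00106), or 2.99 on the log2 scale without WT CCR2hi replicate 3. Within CCR2low the change was 0.70 ± 0.384 (adjusted p = 0.161). The CCR2low gate of Bhlhe41Cre had less than its CCR2hi gate (-1.04 ± 0.38, adjusted p = 0.0332), and the WT gates differed by 0.49 ± 0.39 (adjusted p = 0.294).

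Ly6c1 took another course. WT held 102 ± 28.8 CPM of it (CCR2low) and 278 ± 72.3 (CCR2hi), Bhlhe41Cre 51.3 ± 11.9 (CCR2low) and 402 ± 89.0 (CCR2hi). Within CCR2low Ly6c1 was lower in Bhlhe41Cre (-0.999 ± 0.253, adjusted p = 0.00676), where Ly6c2 was not called, and within CCR2hi its change was 0.53 ± 0.249 (adjusted p = 0.119). Of the counts given to either gene, Ly6c2 took 2.95, 2.81 and 6.82% in WT CCR2hi and 8.85, 16.4 and 15.1% in Bhlhe41Cre CCR2hi. In CCR2low the share was 20.3, 18.5 and 8.70% in WT and 34.9, 26.7 and 48.7% in Bhlhe41Cre. The share was thus higher in every Bhlhe41Cre library than in any WT library of the same gate. Ly6c2 values in CCR2hi rest on a small share of counts beside a much more abundant near copy, so they are less certain than those of the other members. How reads were divided between the copies was not tested.

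**Figure D3:**
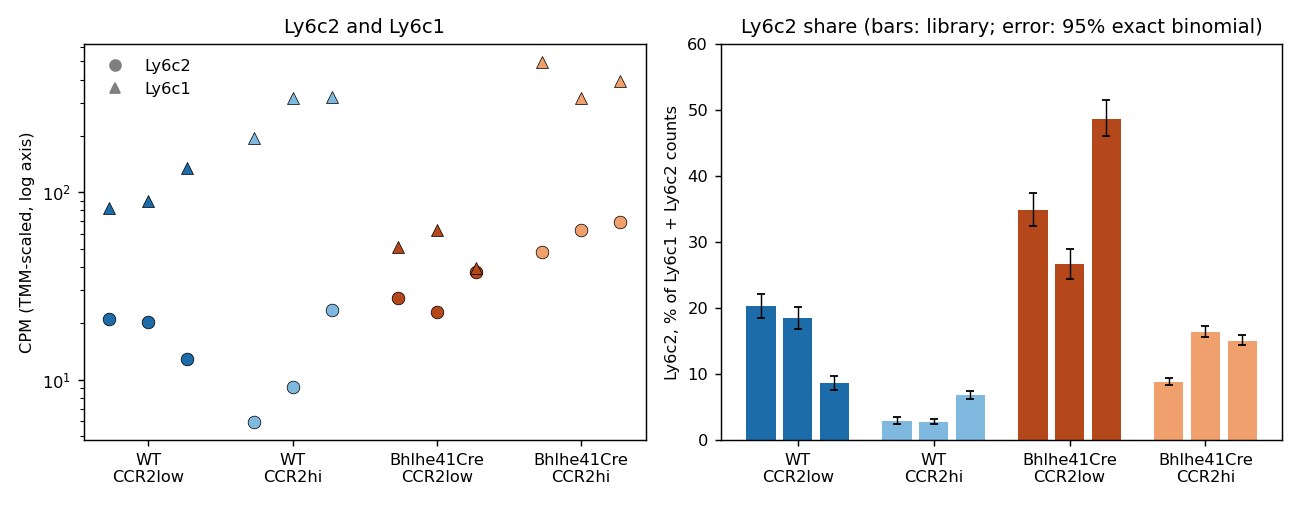
Left, CPM of Ly6c2 (circles) and Ly6c1 (triangles) in each library on a log axis; right, Ly6c2 as a percentage of the counts of both genes, with 95% exact binomial intervals that cover counting error only. Ly6c2 took 2.81 to 6.82% in WT CCR2hi and 26.7 to 48.7% in Bhlhe41Cre CCR2low.

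Plac8 (chr5:100553725-100572245, minus strand) encodes a small cysteine-rich protein abundant in monocytes and in several lymphoid cells. WT libraries held 55.5, 115.8 and 44.2 CPM (CCR2low) and 29.4, 53.9 and 75.3 (CCR2hi). Bhlhe41Cre libraries held 63.3, 41.8 and 79.4 (CCR2low) and 144.2, 141.6 and 210.7 (CCR2hi). Only Bhlhe41Cre CCR2hi stood apart, and the other groups overlapped. Within CCR2hi Plac8 was 3.13-fold higher in Bhlhe41Cre (1.65 ± 0.384, adjusted p = 0.00569), and within Bhlhe41Cre it was lower in CCR2low (-1.43 ± 0.381, adjusted p = 0.0062). These calls ended when the filter on low counts was dropped (adjusted p = 0.0576 and 0.0768). The difference was 0.44 ± 0.377 between the WT gates (adjusted p = 0.326) and -0.23 ± 0.376 between genotypes within CCR2low (adjusted p = 0.656). The sign of both uncalled values turned when WT CCR2low replicate 2, the highest library of its group, was left out (-0.08 and 0.30).

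Chil3 (chr3:106147554-106167564, minus strand), the secreted lectin, had 108, 196.2 and 134 CPM (CCR2low) and 42.6, 27.5 and 21.5 (CCR2hi) in the WT libraries. The Bhlhe41Cre libraries had 551.3, 574.1 and 417.2 (CCR2low) and 426.2, 408.3 and 274.4 (CCR2hi). The lowest Bhlhe41Cre library thus exceeded the highest WT library, and in both Bhlhe41Cre gates replicate 3 was lowest. Chil3 was 3.52-fold higher in Bhlhe41Cre within CCR2low (1.82 ± 0.274, adjusted p = 0.000285) and 12.1-fold higher within CCR2hi (3.60 ± 0.296, adjusted p = 3.57e-06). Between gates it was 4.79-fold higher in CCR2low in WT (2.26 ± 0.281, adjusted p = 1.27e-05) and at 0.48 ± 0.266 in Bhlhe41Cre (adjusted p = 0.15).

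Clec4e (chr6:123281789-123289870, minus strand) encodes Mincle, a receptor for mycobacterial glycolipids and for products of dying cells, which signals through the Fc receptor gamma chain (Fcer1g), Syk and Card9. WT libraries held 87.9, 107.1 and 104 CPM (CCR2low) and 65.2, 19.8 and 27.8 (CCR2hi). Bhlhe41Cre libraries held 759.1, 683.4 and 435.9 (CCR2low) and 542.9, 643.3 and 523.8 (CCR2hi). Every Bhlhe41Cre library was above every WT library, and the Bhlhe41Cre gates overlapped. The change between genotypes was 6.28-fold within CCR2low (2.65 ± 0.353, adjusted p = 0.000137) and 15.1-fold within CCR2hi (3.92 ± 0.375, adjusted p = 1.21e-05). Without WT CCR2hi replicate 1, which held most Clec4e of its group, the CCR2hi change was 4.57 on the log2 scale. In WT Clec4e was higher in CCR2low (1.41 ± 0.342, adjusted p = 0.00303), and the difference between the Bhlhe41Cre gates was 0.14 ± 0.332 (adjusted p = 0.753).

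F10 (chr8:13037308-13056676, plus strand), best known from hepatocytes, had 35.8, 46.3 and 62.2 CPM (CCR2low) and 5.32, 6.41 and 7.49 (CCR2hi) in WT. Bhlhe41Cre libraries had 116.1, 113.7 and 132.8 (CCR2low) and 122.5, 128.1 and 152.0 (CCR2hi). Every Bhlhe41Cre library was above every WT library, and all WT CCR2hi libraries were far below the rest. F10 was 20.9-fold higher in Bhlhe41Cre than in WT within CCR2hi (4.39 ± 0.215, adjusted p = 1.18e-07), which ranked 2 by p among the 14964 genes. Within CCR2low it was 2.51-fold higher (1.33 ± 0.186, adjusted p = 0.000175). The WT gates differed by 7.50-fold with CCR2low higher (2.91 ± 0.204, adjusted p = 1.29e-07), while the Bhlhe41Cre gates overlapped (-0.15 ± 0.182, adjusted p = 0.505).

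F13a1 (chr13:36867178-37050244, minus strand) was higher in CCR2low than in CCR2hi in both genotypes. Within CCR2low it had 368.3, 577.5 and 658 CPM (WT) and 845.9, 643.6 and 549.7 (Bhlhe41Cre), which overlapped (0.35 ± 0.23, adjusted p = 0.242). Within CCR2hi it had 30.4, 48.5 and 49.7 (WT) and 142.7, 128.2 and 133.5 (Bhlhe41Cre), which did not overlap (1.65 ± 0.239, adjusted p = 0.000241). F13a1 was 12.5-fold higher in CCR2low in WT (3.64 ± 0.257, adjusted p = 1.33e-07) and 5.04-fold higher in Bhlhe41Cre (2.33 ± 0.242, adjusted p = 3.02e-06). Of the 10 platelet markers tested none was higher and 3 were lower in CCR2low in WT (29.8% and 30% of all genes). Their sum was at 0.00264 to 0.00519% of counts in WT CCR2low. Within CCR2hi, where F13a1 was higher in Bhlhe41Cre, 3 of the 10 platelet markers were higher and none lower. The shares over all genes were 16.2% and 15.9%, and the platelet median was 1.11. Platelet sums of 0.00645 to 0.00699% in WT and 0.00997 to 0.0124% in Bhlhe41Cre did not overlap. The part of platelet RNA in the F13a1 change was not tested.

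Thbs1 (chr2:118111876-118127133, plus strand), which encodes the matrix protein thrombospondin-1, an activator of latent TGF-beta, differed from the other members. WT libraries had 1440, 1786 and 2029 CPM (CCR2low) and 4038, 2148 and 1989 (CCR2hi, where replicate 1 stood far above the others). Bhlhe41Cre libraries had 4149, 4310 and 3200 (CCR2low) and 3119, 3025 and 2544 (CCR2hi). Within CCR2low Thbs1 was 2.22-fold higher in Bhlhe41Cre (1.15 ± 0.248, adjusted p = 0.00262), with no overlap, and within CCR2hi the change was 0.09 ± 0.245 (adjusted p = 0.81). In WT it was lower in CCR2low (-0.64 ± 0.246, adjusted p = 0.0386), although the groups overlapped. That call was lost without replicate 1 (adjusted p = 0.143) or 2 (0.084) of WT CCR2low and without replicate 1 of WT CCR2hi (0.0564). Between the Bhlhe41Cre gates it was at 0.42 ± 0.246 (adjusted p = 0.163), and at 0.42 with adjusted p = 0.0447 without WT CCR2hi replicate 1, a library outside that comparison that shares its variance estimate.

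**Figure D4:**
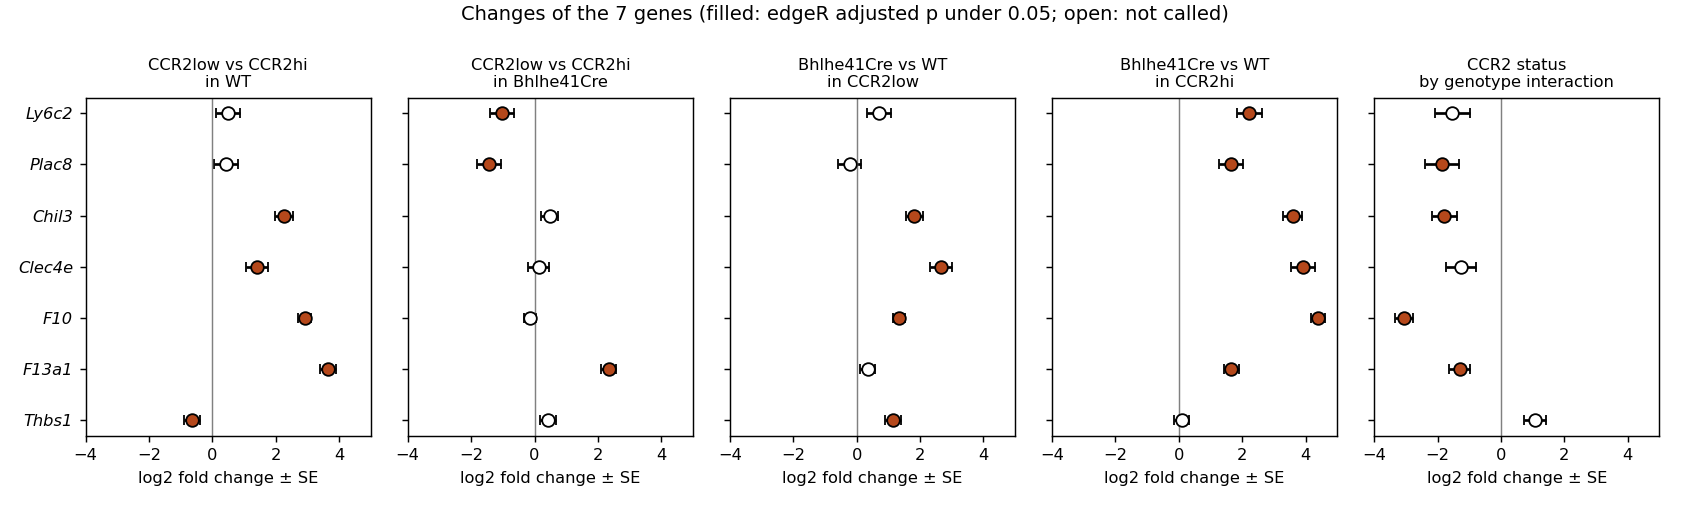
Log2 fold changes ± SE of the 7 members in the 4 comparisons and the interaction; filled points have an edgeR adjusted p under 0.05. Within CCR2hi 6 members are higher in Bhlhe41Cre, from 1.65 for Plac8 to 4.39 for F10, while Thbs1 is at 0.09.

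The comparison of Bhlhe41Cre with WT within CCR2hi asks how the genotype goes with the recruited monocyte genes in the cells sorted for high CCR2. Here 6 of 7 members were higher in Bhlhe41Cre and none lower (16.2% of all genes were called higher and 15.9% lower), with a median of 2.23 against -0.03 over all genes. The groups did not overlap for the same 6 members (48.4% of all genes did not overlap). Of 23 other genes of classical monocytes, 17 were higher and none lower, with a median of 1.19. Neutrophil markers moved as well: 12 of 14 were higher and none lower, with a median of 3.42 and with S100a8 at 463, 153 and 90 counts in WT and 9475, 5717 and 6509 in Bhlhe41Cre. Leukocyte genes were higher too, 16 of 20 with a median of 1.02, and 6 of 16 fibroblast genes were lower. The part of neutrophil RNA in the change of the members was not tested, and that of leukocyte RNA only by the scaling given below. In bulk RNA more cells of a type and more RNA per cell cannot be told apart. All 6 calls stood without both Bhlhe41Cre libraries numbered 3.

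Within CCR2low, Chil3, F10, Clec4e and Thbs1 were higher in Bhlhe41Cre, Ly6c2, Plac8 and F13a1 were not called, and none was lower. That is 4 of 7 members higher (16.4% of all genes were called higher and 26.7% lower), with a median of 1.15 against -0.18 over all genes. For 5 members the groups did not overlap, Ly6c2 among them (51.4% of all genes did not overlap). Of the 23 other classical monocyte genes only 3 were higher and 2 lower, and their median was 0.11. The higher ones were Ms4a4c (1.29 ± 0.216, adjusted p = 0.00054), Ccr2 (1.28 ± 0.303, adjusted p = 0.00439) and Vcan (1.08 ± 0.388, adjusted p = 0.0389), and Ifitm6 was 1 of the 2 lower ones (-1.02 ± 0.371, adjusted p = 0.0398). Macrophage identity genes, with 1 of 17 higher and none lower, and leukocyte genes, with 2 of 20 higher and 1 lower, mostly were not called. Neutrophil markers had 3 of 14 higher and none lower, with a median of 1.12. Several marker lists of non-immune cells moved down in Bhlhe41Cre: 12 of 12 cardiomyocyte genes were lower (median -2.28) and 10 of 10 mural genes (-1.89). So were 9 of 16 fibroblast genes (-0.89) and 7 of 10 mesothelial genes (-1.67), and no gene on these lists was higher. Of 13 endothelial genes 4 were lower (-0.58). Lists of blood cells moved down as well. Of 12 T and NK cell genes 6 were lower and 1 higher (-1.23), and of 7 B cell genes 4 were lower and none higher (-1.22). Of 10 platelet genes 5 were lower and 1 higher (-1.23). The T and NK cell sum was not lower, at 0.00465 to 0.00682% in WT and 0.00611 to 0.00949% in Bhlhe41Cre. Cardiomyocyte genes summed to 0.013 to 0.0219% of counts in WT and 0.00323 to 0.00435% in Bhlhe41Cre, and mural genes to 0.0521 to 0.0574% and 0.0122 to 0.023%. The part of these shifts in the change of the members was not tested. The 4 calls stood without both Bhlhe41Cre libraries numbered 3. Ly6c2 was called without WT CCR2hi replicate 1 (0.89, adjusted p = 0.0309) or 3 (0.69, adjusted p = 0.0385), both outside this comparison. Leaving out replicate 1 also shifted the scaling, with the median of all genes at 0.01 in place of -0.18.

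Between the gates of WT, 4 members (F13a1, F10, Chil3, Clec4e) were higher in CCR2low and Thbs1 was lower (29.8% of all genes were called higher and 30% lower), with a median of 1.41 against 0.01 over all genes. The 4 higher members were those without overlap between the groups (66% of all genes did not overlap). In Bhlhe41Cre F13a1 was higher in CCR2low and Ly6c2 and Plac8 lower (24.9% of all genes were called higher and 29.1% lower), with a median of 0.14 against -0.01. In that comparison neutrophil markers were also lower in CCR2low, 10 of 14 with 1 higher (median -2.48), as were 8 of 10 platelet markers with 1 higher (-2.43) and 7 of 12 T and NK cell markers with 2 higher (-1.39). Neutrophil markers summed to 0.0334 to 0.0369% in CCR2low and 0.113 to 0.17% in CCR2hi. T and NK cell markers summed to 0.00611 to 0.00949% and 0.00213 to 0.00409%, so that their sum and their median differ in direction. The part of such RNA in Ly6c2 and Plac8 was not tested. There 4 members did not overlap, Thbs1 being the fourth (61.3% of all genes did not overlap). The Ly6c2 call in Bhlhe41Cre ended without the filter on low counts (adjusted p = 0.214), without both libraries numbered 3 (0.0847), and without CCR2low replicate 1 (0.0972) or 2 (0.127) or CCR2hi replicate 2 (0.0749) or 3 (0.0882). In WT Ly6c2 was called higher in CCR2low only without WT CCR2hi replicate 3 (1.26, adjusted p = 0.00294). It was at -0.07 without WT CCR2hi replicate 1, where the median of all genes was at -0.18.

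These gate differences depend on what the counts are scaled to, and the gates differ in the share of counts from leukocyte genes. Scaling to the sum of the 20 leukocyte genes moved the median of all genes to -2.73 in WT and -1.47 in Bhlhe41Cre. Of 14964 genes, 220 were then called higher in CCR2low and 13910 lower in WT, and 265 and 12373 in Bhlhe41Cre. A lower call was thus the common outcome for any gene on this scale. Ly6c2 was lower in CCR2low in WT (-2.10, adjusted p = 8.04e-06) and in Bhlhe41Cre (-2.50, adjusted p = 4.59e-06). Plac8 was lower too, by -2.18 (adjusted p = 1.07e-05) and -2.89 (adjusted p = 2.8e-06). Clec4e turned to -1.51 (adjusted p = 0.00821) and -1.31 (adjusted p = 0.02), and Chil3 to -0.58 (adjusted p = 0.185) and -1.0 (adjusted p = 0.0348). F10 was at 0.24 (adjusted p = 0.364) and -1.61 (adjusted p = 3.46e-05), and F13a1 stayed higher in CCR2low, at 0.99 (adjusted p = 0.00355) and 0.87 (adjusted p = 0.00974), a call it lost when counts were scaled to macrophage identity genes (0.37, adjusted p = 0.225, and 0.26, adjusted p = 0.396). Thbs1 was at -3.49 (adjusted p = 1.78e-06) and -1.04 (adjusted p = 0.0262), beside the fibroblast list named above, whose part in Thbs1 was not tested. Per leukocyte RNA, Ly6c2 counts were at 0.722 ± 0.362% of the leukocyte sum in WT CCR2hi and 0.169 ± 0.032% in WT CCR2low, against 1.52 ± 0.0835% and 0.268 ± 0.0436% in Bhlhe41Cre.

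The genotype differences of 4 members were called under each scaling within CCR2hi. Scaled to leukocyte genes, where the median of all genes was -1.33, F10 was higher in Bhlhe41Cre by 3.12 (adjusted p = 3.62e-06), Clec4e by 2.44 (adjusted p = 0.000536), Chil3 by 2.21 (adjusted p = 0.000358) and Ly6c2 by 1.06 (adjusted p = 0.00421). Plac8 (0.44, adjusted p = 0.198) and F13a1 (0.43, adjusted p = 0.168) lost their calls, and Thbs1 turned to -1.34 (adjusted p = 0.00752). Within CCR2low the median of all genes was -0.22, and Clec4e (2.63, adjusted p = 0.00281), Chil3 (1.79, adjusted p = 0.00824) and F10 (1.27, adjusted p = 0.00284) were called again, while Thbs1 (1.12, adjusted p = 0.0552) was not, though it was when scaled to macrophage identity genes (1.33, adjusted p = 0.0479). As a share of the leukocyte sum, F10 counts were at 0.463 ± 0.164% (CCR2low) and 0.394 ± 0.0596% (CCR2hi) in WT, and at 1.12 ± 0.00452% and 3.40 ± 0.198% in Bhlhe41Cre. Clec4e was at 0.949 ± 0.154% and 2.71 ± 2.57% in WT, and at 5.89 ± 1.96% and 14.6 ± 2.58% in Bhlhe41Cre, by gate in the same order. For F10 the WT gates overlapped on this scale, and all 4 of the members called within CCR2hi were highest in Bhlhe41Cre CCR2hi.

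**Figure D5:**
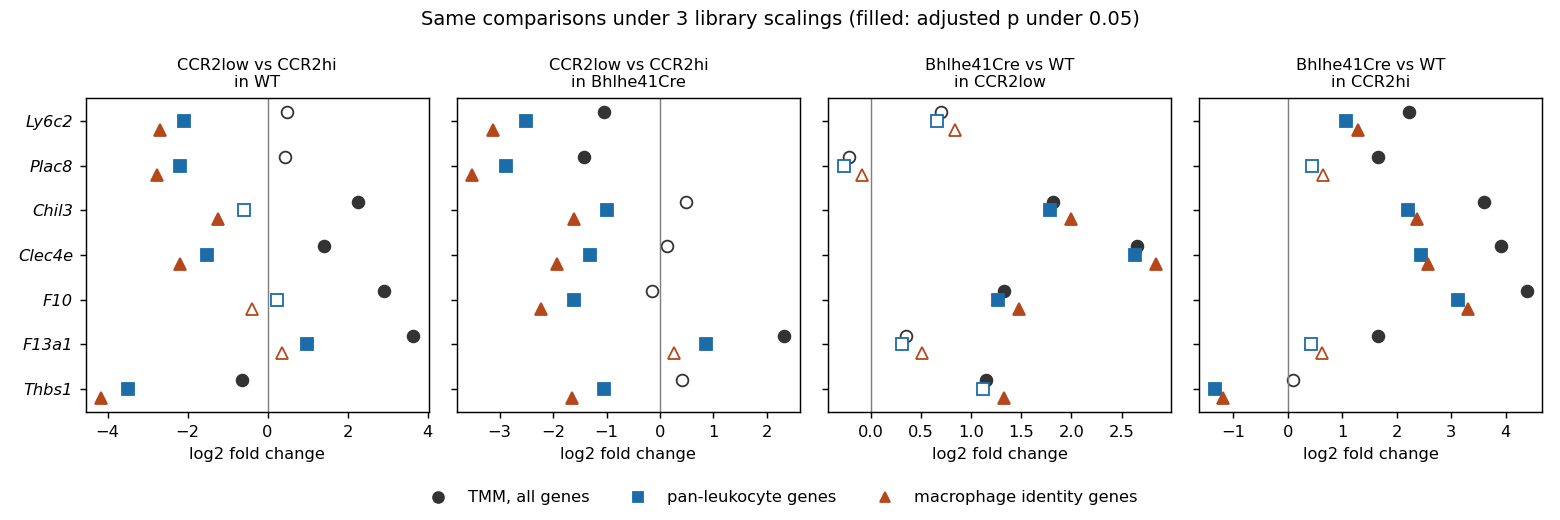
Log2 fold changes of the members under scaling to all genes (TMM), to 20 leukocyte genes and to 17 macrophage identity genes; filled points have an adjusted p under 0.05. In the gate comparisons Chil3 and Clec4e change sign between scalings, and in the genotype comparisons F10, Chil3 and Clec4e stay above 0, from 1.27 to 4.39.

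The interaction asks whether the CCR2low minus CCR2hi difference was another in Bhlhe41Cre than in WT. For 4 members it was lower in Bhlhe41Cre and for none higher (7.85% of all genes were called lower and 4.74% higher), with a median of -1.53 against -0.18 over all genes. F10 had the largest value (-3.06 ± 0.271, adjusted p = 0.000154), again ranking 2 by p, followed by Plac8 (-1.87 ± 0.535, adjusted p = 0.0377), Chil3 (-1.78 ± 0.381, adjusted p = 0.0113) and F13a1 (-1.31 ± 0.329, adjusted p = 0.0228). Some marker lists moved the same way: 8 of 14 neutrophil genes were lower (median -3.40), 13 of 20 leukocyte genes (-1.15), 6 of 17 macrophage identity genes (-0.89) and 11 of 12 cardiomyocyte genes (-2.09), with none higher. Other lists had few calls, with 1 of 16 fibroblast genes (-0.23) and 1 of 13 endothelial genes (-0.67) lower and none higher. Apart from the scalings to leukocyte and to macrophage identity genes, the part of the marker lists in the interaction of the members was not tested. Ly6c2 (-1.53 ± 0.544, adjusted p = 0.0819), Clec4e (-1.27 ± 0.474, adjusted p = 0.0952) and Thbs1 (1.06 ± 0.348, adjusted p = 0.0625) were not called. Scaled to leukocyte genes, which moved the median of all genes to 1.10, F10 was still called (-1.85, adjusted p = 0.00357), Thbs1 was called at 2.45 (adjusted p = 0.00595), and Chil3 (-0.42), Plac8 (-0.71) and F13a1 (-0.12) were not. Plac8 lost its call without replicate 2 of WT CCR2low (adjusted p = 0.102), replicate 1 (0.104) or 2 (0.0657) of WT CCR2hi, Bhlhe41Cre CCR2low replicate 1 (0.0917) or 2 (0.0966) and Bhlhe41Cre CCR2hi replicate 1 (0.0772), 2 (0.0785) or 3 (0.141). F13a1 lost its call without replicate 2 of WT CCR2low (0.0583), replicate 1 of WT CCR2hi (0.0885), Bhlhe41Cre CCR2low replicate 3 (0.069) and Bhlhe41Cre CCR2hi replicate 1 (0.0948), 2 (0.0787) or 3 (0.093). Without both Bhlhe41Cre libraries numbered 3 the calls of F10 and Chil3 stood, and Plac8 (0.0752) and F13a1 (0.0586) lost theirs. Without WT CCR2hi replicate 1 Clec4e was called (-1.72, adjusted p = 0.00616), and without WT CCR2hi replicate 3 Ly6c2 was (-2.30, adjusted p = 0.00458). Thbs1 was called without WT CCR2hi replicate 1 (0.87, adjusted p = 0.044) or 3 (1.24, adjusted p = 0.0367) and without Bhlhe41Cre CCR2low replicate 3 (1.36, adjusted p = 0.0241).

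Of the 23 other classical monocyte genes, 16 were higher and 2 lower in CCR2low than CCR2hi in WT, with Emilin2 (2.23), the integrin Itgam (3.10), Sirpb1c (2.66) and Ms4a6c (2.69) having the smallest p. In Bhlhe41Cre 11 were higher and 6 lower (24.9% and 29.1% of all genes). In the interaction 14 were lower and 1 higher (7.85% and 4.74% of all genes). Of 13 genes of patrolling, non-classical monocytes, 7 were higher and 2 lower in CCR2low in WT, and Ace (-2.93), Itgal (1.84), Gngt2 (1.68) and Treml4 (2.13) had the smallest p. Between genotypes none of these 13 was higher and 4 were lower within CCR2low, namely Nr4a1, the nuclear receptor on which these cells depend (-2.36 ± 0.196, adjusted p = 1e-05), Cx3cr1 (-1.48), Ace (-1.02) and Spn (-1.22). Within CCR2hi 6 were higher and 3 lower. Over all genes 29.8% were called higher and 30% lower in CCR2low in WT. Between genotypes 16.4% of all genes were called higher and 26.7% lower within CCR2low, and 16.2% and 15.9% within CCR2hi. The list holds genes that other cells also express, such as Ace and Fabp4 of endothelium.

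The C-type lectin Clec4d, whose gene neighbours Clec4e and whose product pairs with Mincle, had 203 ± 18.4 CPM (CCR2low) and 17.4 ± 4.66 (CCR2hi) in WT, and 477 ± 14.5 and 272 ± 30.6 in Bhlhe41Cre. It was higher in Bhlhe41Cre in both gates (1.23 ± 0.165, adjusted p = 0.000141, and 3.96 ± 0.185, adjusted p = 1.18e-07). Of 14 genes of Mincle signalling and neighbouring lectins, 12 were higher and none lower in CCR2low in WT, with Clec4d (3.54), Syk (2.16), Card9 (2.92) and Clec4a2 (2.81) first by p. Over all genes 29.8% were called higher and 30% lower in that comparison. Within CCR2hi 9 were higher in Bhlhe41Cre and none lower (16.2% and 15.9% of all genes). For CCR2low these shares of all genes were 16.4% and 26.7%. Within CCR2low 4 were higher, Clec4d, Malt1 (3.07), Bcl10 (0.61) and Syk (0.49), and the adaptor Card9 was lower (-0.90 ± 0.186, adjusted p = 0.00203). Malt1, the protease of the Card9 complex, was at 17.2 ± 3.91 CPM in WT CCR2low and 144 ± 47.5 in Bhlhe41Cre CCR2low.

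Of 24 coagulation and fibrinolysis genes, 23 were tested beside F10 and F13a1. In WT 7 were higher in CCR2low and 8 lower, near the shares over all genes (29.8% called higher and 30% lower). F7, the protease that with tissue factor activates factor X, was higher (5.24 ± 0.503, adjusted p = 1.21e-06), at 47.2 ± 6.27 against 1.25 ± 0.789 CPM. Ggcx, the carboxylase that matures vitamin K dependent factors, was lower (-1.82), as were Plat (-2.59) and Tfpi (-1.72). Between genotypes 8 were higher and 6 lower within CCR2low, where Plau, the urokinase protease (1.22 ± 0.236, adjusted p = 0.00136), and Procr (1.72) were higher, and Gas6 (-1.02 ± 0.153, adjusted p = 0.000267) and Ggcx (-0.86) lower. Within CCR2hi 9 were higher and 2 lower. Between genotypes 16.4% of all genes were called higher and 26.7% lower within CCR2low, and 16.2% and 15.9% within CCR2hi. Of 16 thrombospondins and thrombospondin receptors, 4 were higher and 8 lower in CCR2low in WT, with Thbs3 (-3.43), Comp (-3.91), Thbs2 (-3.68) and the receptor Cd47 (1.10) first by p. Within CCR2low 5 were higher and 6 lower between genotypes, with Comp (-3.03), Sdc4 (0.93), Itga3 (-1.10) and Cd36 (1.34) first by p. Thus Thbs2 (-1.73 ± 0.344, adjusted p = 0.00157) was lower in the comparison in which Thbs1 was higher.

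Of 16 genes of the Ly6 family and related proteins, 11 were tested. Within CCR2low 4 were lower in Bhlhe41Cre and 1 higher, the urokinase receptor Plaur (0.94 ± 0.208, adjusted p = 0.00312), with Ly6c1, Ly6a (-0.59) and Gpihbp1 (-0.82) among the lower ones. In WT 4 were lower in CCR2low and 2 higher, with Ly6a (-1.35), Gpihbp1 (-1.93), Plaur (1.56) and Ly6c1 (-1.44) first by p. Over all genes 16.4% were called higher and 26.7% lower in Bhlhe41Cre within CCR2low. Between the WT gates 29.8% were called higher and 30% lower in CCR2low. Only 3 of 8 chitinase-like genes passed the filter. Of these Ctbs was higher in CCR2low in WT (1.34), and Chil1 rose with the Bhlhe41Cre genotype within CCR2low (1.97 ± 0.654, adjusted p = 0.0291).

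By the Pearson correlation of log2 CPM over the 12 libraries, which fall into 4 groups that share composition, the genes most like each member were as follows. For Clec4e they were Tnfsf14 (r = 0.991), Acod1, the enzyme that makes itaconate (0.989), and Crem (0.988). For Chil3 they were Gch1 (0.984), the chemokine receptor Ccr1 (0.981) and Nabp1 (0.981), and for F10 Srgn (0.977), Ccr1 (0.973) and Mxd1 (0.97). F13a1 was most like Crybg1 (0.996), Max (0.994) and Tbc1d9 (0.992). Ly6c2 was most like Plbd1 (0.951) and the ribosomal protein genes Rpl37 (0.927) and Rpl9 (0.924), Thbs1 like Jmjd1c (0.96), Chd1 (0.96) and Uso1 (0.954), and Plac8 like Ier3 (0.885), Prkab1 (0.862) and AW112010 (0.857). No member was among the 3 genes most like another member, and Ccr1 was named for both Chil3 and F10. Some members were still alike: r was 0.961 for Chil3 and Clec4e, 0.952 for Chil3 and F10, 0.916 for F10 and Clec4e, and 0.856 for Ly6c2 and Plac8. The remaining pairs of members ran from -0.161 (Plac8 and Thbs1) to 0.788 (Ly6c2 and F10).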

How the data were processed

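Bulk RNA of sorted cells was measured in 12 libraries. The submitters' processing notes name CASAVA 1.8, STAR 2.4.0j, RSEM and the build mm10. No source used here gives RSEM's version or the annotation. One deposited table holds RSEM counts per gene, all whole numbers, and another the authors' TPM. Columns named KD were matched to Bhlhe41Cre samples by gate and replicate number, a mapping that no label states outright. In those samples' labels the characteristic fields are shifted (the sex stands under genotype and the strain under cell type) and give neither genotype nor gate, so both were taken from the titles, and the sex and strain from the shifted fields. Counts were analysed in R 4.3.3 with edgeR 4.0.16: TMM scaling (also of CPM), filterByExpr (14964 genes of 53801), 1 mean per group, glmQLFit and glmQLFTest, two-sided, Benjamini-Hochberg adjustment across the tested genes, and calls at an adjusted p under 0.05. The fit leaves 8 residual degrees of freedom. Alternatives used DESeq2 1.42.0, limma 3.58.1 on log2(TPM + 1) and log2(TPM + 0.1) of genes with a mean TPM of at least 0.5, other scalings (DESeq2's size factors, leukocyte or macrophage genes), no filter, a replicate block and left-out libraries. The scripts were tested on simulated data.

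The members and lists were chosen with earlier results of these data known. Named genes were the members, their near copies, per list up to 4 called genes with the smallest p in CCR2low vs CCR2hi in WT and in Bhlhe41Cre vs WT in CCR2low, and the 3 genes most like each member among those with a mean of at least 5 CPM. S100a8 and Ifitm6 were chosen after their values were seen, and 1 gene that the rule names is not reported here. Residuals of equally numbered libraries correlated at 0.23, 0.12 and 0.40 between the Bhlhe41Cre gates and at -0.06, 0.03 and -0.05 between the WT gates. Unequally numbered libraries of the Bhlhe41Cre gates ran from -0.35 to 0.22, so the numbers do not establish pairs. The main fit paired no libraries. For the gate comparisons and the interaction, the replicate block joined equally numbered libraries of the gates within each genotype. For the genotype comparisons it was the replicate number alone, which also joined equally numbered libraries of WT and Bhlhe41Cre, although these come from different mice. Positions are from GENCODE release M21 on GRCm38, the assembly of mm10, and promoters from RefSeq.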

Additional observations from a re-analysis of the deposited data

Results flagged for a closer look

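The CCR2low minus CCR2hi difference was not the same in Bhlhe41Cre as in WT for 4 members by the edgeR interaction test. F10 differed by -3.06 ± 0.271 (adjusted p = 0.000154), as it was 7.50-fold higher in CCR2low in WT while the gates of Bhlhe41Cre overlapped. Plac8 differed by -1.87 ± 0.535 (adjusted p = 0.0377), being lower in CCR2low in Bhlhe41Cre and not called in WT. Chil3 differed by -1.78 ± 0.381 (adjusted p = 0.0113) and F13a1 by -1.31 ± 0.329 (adjusted p = 0.0228), both with a smaller excess of CCR2low in Bhlhe41Cre. Under scaling to leukocyte or macrophage identity genes only the F10 value was called in this direction.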

How the results depend on the processing

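Of 21 alternatives to the edgeR fit, the 2 that scale to genes of one cell class changed most; one alternative, without both Bhlhe41Cre libraries numbered 3, was chosen after seeing the data. Genes called were 8949, 8094, 6441, 4808 and 1884 in the order CCR2low vs CCR2hi in WT and in Bhlhe41Cre, Bhlhe41Cre vs WT in CCR2low and in CCR2hi, and interaction. Under macrophage identity scaling they were 14427 (104 higher, 14323 lower), 13822 (67 and 13755), 2588 (1307 and 1281), 10941 (274 and 10667) and 7345 (7208 and 137). Under leukocyte scaling they were 14130 (220 and 13910), 12638 (265 and 12373), 3823 (1171 and 2652), 12386 (233 and 12153) and 8665 (8505 and 160). The median gene under macrophage scaling was at -3.36, -2.08, -0.02, -1.15 and 1.11. The main splits were 4454 and 4495, 3733 and 4361, 2448 and 3993, 2424 and 2384, and 710 and 1174. Limma on log2(TPM + 1) gave 2542 and 5443 between the WT gates, 2135 and 4701 between the Bhlhe41Cre gates and 1645 and 3046 between genotypes in CCR2hi, and 1055 interaction calls (849 with 0.1 added). Without the filter the split was 4445 and 3778 between the Bhlhe41Cre gates, 2936 and 2666 and 1860 and 2402 between genotypes, and 1150 and 691 in the interaction; DESeq2 gave 1190 and 1288 there.

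Members turned between the WT gates under macrophage scaling (Ly6c2 -2.68, Chil3 -1.24, F10 -0.39, Clec4e -2.19, Plac8 -2.77) and leukocyte scaling (Ly6c2 -2.10, Chil3 -0.58, Clec4e -1.51, Plac8 -2.18). Between the Bhlhe41Cre gates they turned under macrophage scaling (Chil3 -1.61, Clec4e -1.92, Thbs1 -1.65) and leukocyte scaling (Chil3 -1.0, Clec4e -1.31, Thbs1 -1.04). Thbs1 turned between genotypes in CCR2hi, at -1.19 and -1.34. Members called between the Bhlhe41Cre gates were 3, against 6 and 7 under these scalings and 1 without the filter. Over all genes 8094 were called there, against 13822 and 12638 under these scalings and 8223 without the filter. Between these gates the member counts under the scalings therefore follow the rise over all genes. In the interaction more genes were called over all genes under these scalings, but fewer members. In the interaction 4 were called, against 2 under either scaling, without the filter, in both fits on TPM and without both Bhlhe41Cre libraries numbered 3. The members called were not always among those of the main fit: under leukocyte scaling they were F10 and Thbs1. Over the 19 alternatives other than these scalings, the interaction call ended in 12 for Plac8, in 10 for F13a1, in 1 for Chil3 (no filter, adjusted p = 0.0534) and in 0 for F10. A call was gained in 5 of them for Thbs1, in 1 for Clec4e and in 1 for Ly6c2.

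Leaving out 1 library, or both Bhlhe41Cre libraries numbered 3, gave 7901 to 9417, 7095 to 8362, 4657 to 6851, 3260 to 5543 and 871 to 2801 genes called, and 4 to 6, 2 to 4, 4 to 5, 6 and 2 to 6 members called, in the same order. The interaction had fewest calls without WT CCR2low replicate 1 (1138) or 2 (953), Bhlhe41Cre CCR2low replicate 1 (871) and Bhlhe41Cre CCR2hi replicate 3 (927). With the replicate block the counts were 9052, 8244, 6099, 4473 and 2156, and Thbs1 between the WT gates lost its call (-0.57, adjusted p = 0.0801); it changed no other call of a member. F10, Chil3 and Clec4e kept their genotype calls in both gates under all 21 alternatives.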
